A study of Mus musculus with 8 samples.

Results

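Cytosolic ribosomal protein genes were examined in E14 mouse ESCs, embryonic stem cells grown without feeders on gelatin with the cytokine LIF. Members were all non-control probes whose gene name in the array files reads Rpl or Rps followed by a number, or is Rplp0, Rplp1, Rplp2 or Rpsa, without the Rps6k kinases. The rule used names only and no measured value. It gave 189 of the 39429 probes and 84 of the 30175 gene names, of which 51 genes (118 probes) encode proteins of the large (60S) subunit and 33 (71 probes) proteins of the small (40S) subunit. RNA came from 4 groups, each with biological replicates A and B (2 arrays), all collected 72 hours after infection with a lentivirus that expresses a short hairpin RNA. Control KD cells received a hairpin against EGFP, which targets no gene of these cells. Tip60 KD cells received a hairpin against Tip60, the acetyltransferase encoded by Kat5, Hdac6 KD cells a hairpin against the deacetylase Hdac6, and double KD cells both. A single hairpin per gene was used, so effects of a hairpin apart from its target cannot be told apart from the knockdown. The comparisons ask how transcript levels depend on Tip60, on Hdac6 and on both.

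The ribosome is assembled from ribosomal RNA and one copy of nearly every ribosomal protein, with the acidic stalk proteins as the known exception. Most ribosomal protein mRNAs begin with a short run of pyrimidines, the 5′ terminal oligopyrimidine (TOP) motif, through which mTOR signalling and the RNA-binding protein Larp1 act on their translation and stability. In ESCs these mRNAs are among the most abundant, and many ribosomal protein genes have processed pseudogenes or expressed paralogs, which can share probe sequence with them.

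The targeted transcripts were lower where their hairpin was used. Kat5 signal was 39.2% of control KD upon Tip60 KD and 40.4% upon double KD (limma adjusted p 0.00109 and 0.00196), and Hdac6 signal was 17.8% upon Hdac6 KD and 27.3% upon double KD (adjusted p 0.000308 and 0.00073). Hdac6 signal was also lower upon Tip60 KD, where its hairpin was not used, at 73.9% of control KD (limma adjusted p 0.00622). It was higher upon double KD than upon Hdac6 KD, by 0.62 on the log2 scale (limma adjusted p 0.0146). Between 50.9% and 94.4% of the 43020 spots on an array were well above background, no spot was saturated, and the background that the software subtracted had a median between 37.2 and 114.3 intensity units, highest on control KD B. All 6 ESC markers examined (Pou5f1, Nanog, Sox2, Zfp42, Dppa4 and Utf1) were tested, while Postn of 5 fibroblast markers and Gata6 and Sox7 of 4 primitive endoderm markers were well above background on 0 arrays. Of the other fibroblast markers, Thy1 was above background on 8 arrays (log2 signal 0.45 to 1.18), Col1a1 on 6, Col3a1 on 5 and Col1a2 on 1. Of the other primitive endoderm markers, Gata4 was above background on 5 arrays and Sox17 on 3. Of the 6 ESC markers, 4 were called higher and 0 lower upon Tip60 KD, 1 and 0 upon Hdac6 KD, and 2 and 1 upon double KD, with changes from -0.24 to 1.01, -0.18 to 0.47 and -0.35 to 0.63. Pou5f1, which encodes the pluripotency factor Oct4, had the highest value in each, at 1.01, 0.47 and 0.63 on the log2 scale (limma adjusted p 0.00276, 0.0452 and 0.0171), and Sox2 the lowest upon double KD (-0.35, adjusted p 0.0711). Of 3 fibroblast markers tested, 2, 0 and 2 were called higher, and of 2 primitive endoderm markers 0 were called. Col1a1, a collagen gene of fibroblasts, was higher by 0.98 upon Tip60 KD and 0.79 upon double KD (adjusted p 0.00661 and 0.018) at a log2 signal between -2.71 and -1.30, close to the lowest level measured, and was not called with the signal-level trend described below removed. With that trend removed, 1, 0 and 1 of the 3 fibroblast markers tested were still called higher upon knockdown of Tip60, Hdac6 and both. The part of these differences in the results on ribosomal protein genes was not tested.

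All signals below are log2 values of the processed fluorescence relative to each array's 75th percentile, a change is the difference of 2 group means on that scale, and a gene was called where its limma Benjamini-Hochberg adjusted p over all 18034 genes tested was under 0.1. The brightest probe stood for each gene. All 84 genes passed the filter on dim probes, which asks for signal above background on at least 2 arrays of any group, and 186 of the 189 probes did. Rpl3l passed it at a signal near the lowest level measured, being above background on 5 arrays, with both arrays of Tip60 KD and of double KD among them. With 2 arrays a group, p-values rest on the spread between replicates shared over the groups.

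Most ribosomal protein transcripts gave lower signal in each knockdown than in control KD. Upon Tip60 KD, 44 of 84 genes (52.4%) were called lower and 2 higher, against 20.1% of all genes called lower and 19.7% called higher. Upon Hdac6 KD, 43 genes were called lower and 0 higher (51.2% against a background of 14.9% lower). Upon double KD 43 were called lower and 0 higher (51.2% against 16.9%). Without adjustment, 48 members had a limma p under 0.05 in each of the 3 comparisons. With the signal-level trend described below removed, 32, 20 and 15 did. The share of all genes at this unadjusted threshold was not counted. The sizes were modest. The median change was -0.31 upon Tip60 KD, equal to 80.5% of control signal, -0.28 (82.1%) upon Hdac6 KD and -0.28 (82.4%) upon double KD, while the medians over all genes tested were 0.06, 0.03 and 0.05. In sign, 78, 81 and 83 of the 84 changes were below 0, and 57, 61 and 53 with the signal-level trend described below removed. The 3 comparisons share the same control arrays, so their counts are not independent of each other.

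**Figure D1:**
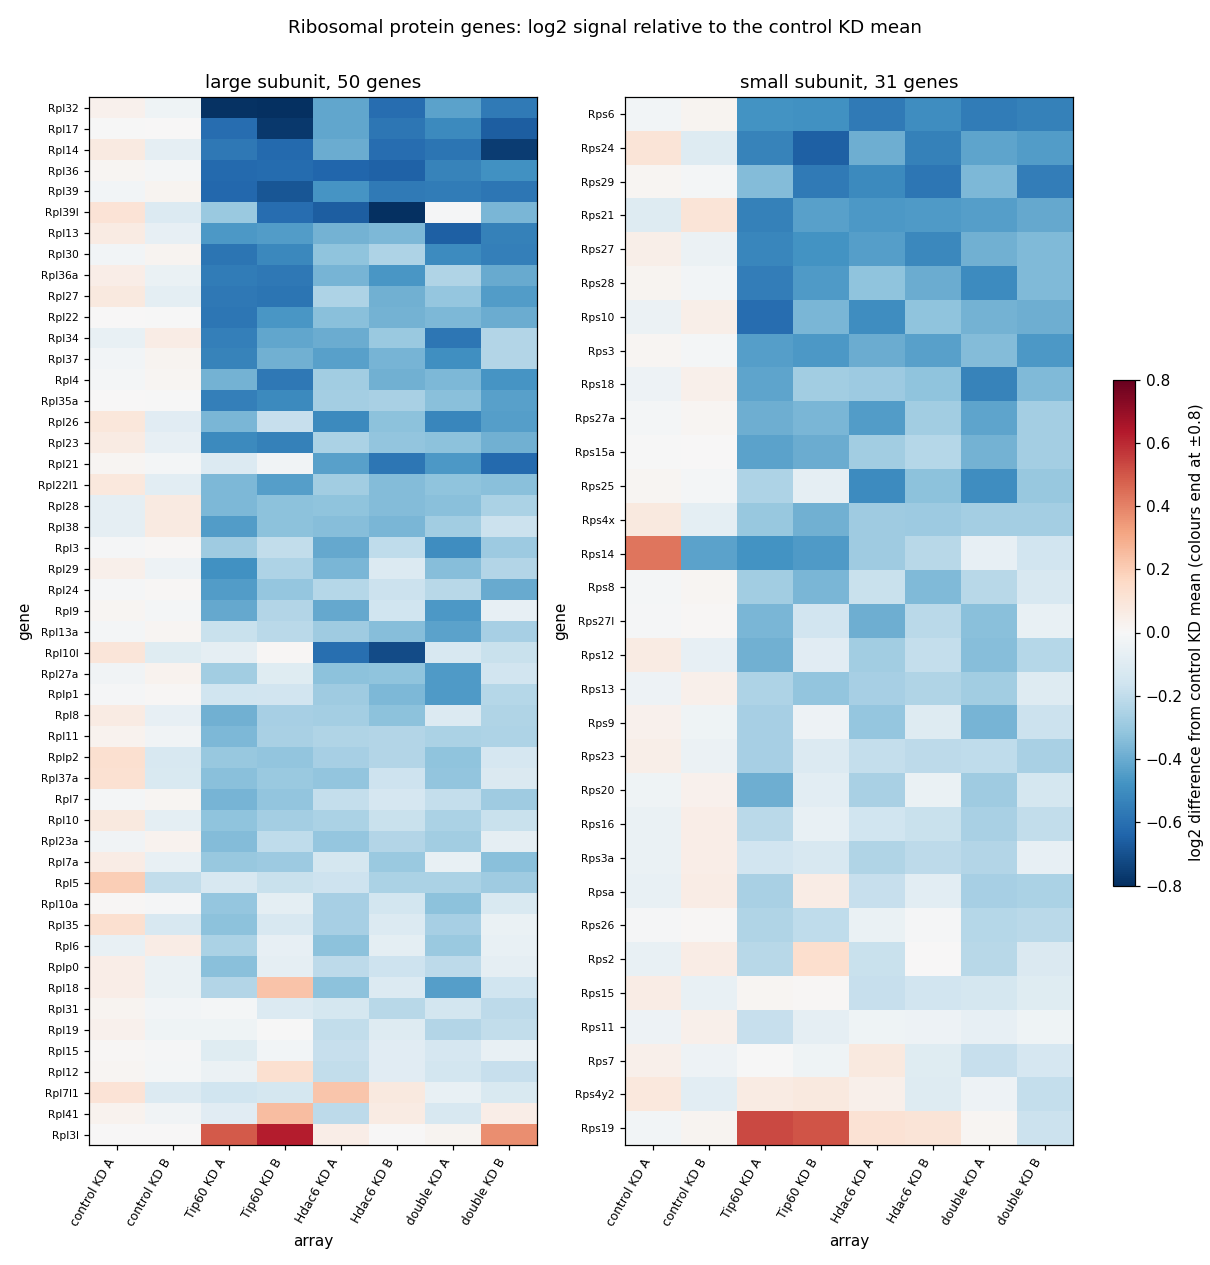
Each row is 1 of 81 ribosomal protein genes and each column 1 array. Colour gives the log2 signal minus the mean of the 2 control KD arrays for that gene, with blue lower and red higher, and rows are ordered by the mean of their 3 changes. Most rows are blue on all 6 knockdown arrays, Rpl3l and Rps19 are red upon Tip60 KD, and the control KD arrays differ from each other most in Rps14.

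These counts depended on how the arrays were scaled. Ribosomal protein probes were among the brightest on the array: 71 of the 84 members had a mean log2 signal above 5, a level reached by 640 of the other genes. Bright genes of any kind were lower in the knockdowns. Among other genes with a mean signal between 5 and 6, the median change upon Tip60 KD was -0.17 (328 genes), against -0.45 for the 16 members in that interval. Between 6 and 7 it was -0.24 (238 genes) against -0.38 for 33 members, and between 7 and 9 it was -0.16 (74 genes) against -0.24 for 22 members. Upon Hdac6 KD the corresponding medians were -0.17 and -0.33, -0.21 and -0.30, and -0.16 and -0.21, and upon double KD -0.22 and -0.40, -0.23 and -0.34, and -0.14 and -0.22. In each of these 9 cases the median of the members was below that of other genes of like signal, by between 0.05 and 0.28. The intervals below 5 hold 13 members (6, 4, 2 and 1) and went both ways. Between 4 and 5 the 6 members differed from the other genes by 0.03, -0.13 and -0.06 upon knockdown of Tip60, Hdac6 and both, and Rpl3l, alone below 0, by 0.43, -0.06 and 0.06. The 4 members between 2 and 4 differed by -0.01, -0.39 and -0.26, and the 2 members between 0 and 2 by -0.29, -0.32 and -0.13.

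**Figure D2:**
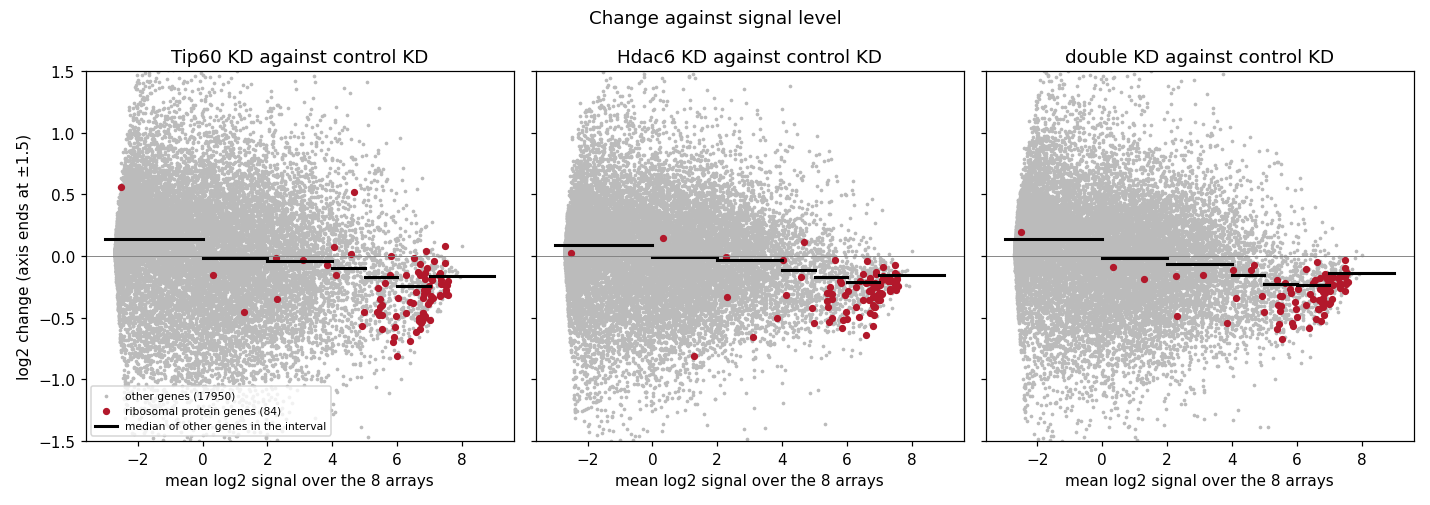
Log2 change against control KD (vertical axis) is plotted against the mean log2 signal over the 8 arrays for each of the 18034 genes, with ribosomal protein genes in red and black lines at the median of the other genes in each interval of signal. The black lines fall from 0.13 in the dimmest interval upon Tip60 KD to -0.24 between 6 and 7, and most red points at high signal lie below them.

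When the trend of the other genes with signal level was subtracted from every array, a choice made after this trend had been seen, the median change of the members was -0.10 upon Tip60 KD, -0.08 upon Hdac6 KD and -0.08 upon double KD. Members called lower then numbered 25 (29.8%, against 19.3% of all genes) upon Tip60 KD, 15 (17.9%, against 13.8%) upon Hdac6 KD and 13 (15.5%, against 14.9%) upon double KD. Cyclic loess gave nearly the same counts, 25, 15 and 13 lower. On this scale the share of members called lower was 1.54 times that of all genes upon Tip60 KD, 1.29 times upon Hdac6 KD and 1.04 times upon double KD. In either direction, 33.3%, 17.9% and 15.5% of members were called, below the 37.8%, 27.1% and 29.4% of all genes. Replicate letters paired the arrays, and with the letter as a block 33, 28 and 26 members were called lower on this scale (39.3%, 33.3% and 31.0%, against 28.3%, 24.8% and 25.2% of all genes). Under 75th percentile scaling the block gave 56, 60 and 64 lower (66.7%, 71.4% and 76.2%, against 27.7%, 25.2% and 26.2%). Whether the decline of bright signals took place in the cells or in labelling and scanning was not tested, and since each group kept its position from slide to slide, position cannot be told apart from group.

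Single arrays also mattered. The number called lower upon Hdac6 KD was 16 without control KD A (19.0%, against 8.43% of all genes), 25 without control KD B (29.8%, against 9.81%), 18 without Hdac6 KD A (21.4%, against 9.45%) and 11 without Hdac6 KD B (13.1%, against 6.79%). No member was called higher in these fits, and without Hdac6 KD B the share called in either direction, also 13.1%, was below the 14.8% of all genes. Upon double KD it was 18 without control KD A (21.4%, against 9.75%), 26 without control KD B (31.0%, against 12.3%), 23 without double KD A (27.4%, against 11.3%) and 28 without double KD B (33.3%, against 10.8%). Upon Tip60 KD 30 were called lower without control KD A (35.7%, against 13.6%), 34 without control KD B (40.5%, against 16.7%), 30 without Tip60 KD A (35.7%, against 16.6%) and 37 without Tip60 KD B (44.05%, against 14.1%).

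Upon Tip60 KD 27 of 51 large subunit genes and 17 of 33 small subunit genes were called lower (52.9% and 51.5%), upon Hdac6 KD 26 and 17 (51.0% and 51.5%) and upon double KD 27 and 16 (52.9% and 48.5%). The median change of the large subunit was -0.32, -0.29 and -0.29 upon knockdown of Tip60, Hdac6 and both, and that of the small subunit -0.28, -0.26 and -0.27. The large subunit median was thus lower by 0.04, 0.03 and 0.02, against a spread between replicates of 0.03 (SD of this difference, pooled over groups of 2). Array by array, the large minus small difference of the medians relative to control KD was 0.02 and -0.02 on control KD A and B, 0.00 and 0.01 on Tip60 KD A and B, -0.00 and -0.07 on Hdac6 KD A and B, and 0.01 and 0.00 on double KD A and B. The control arrays span the same range as the knockdown arrays except Hdac6 KD B, so no difference between subunits was detectable at this precision.

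**Figure D3:**
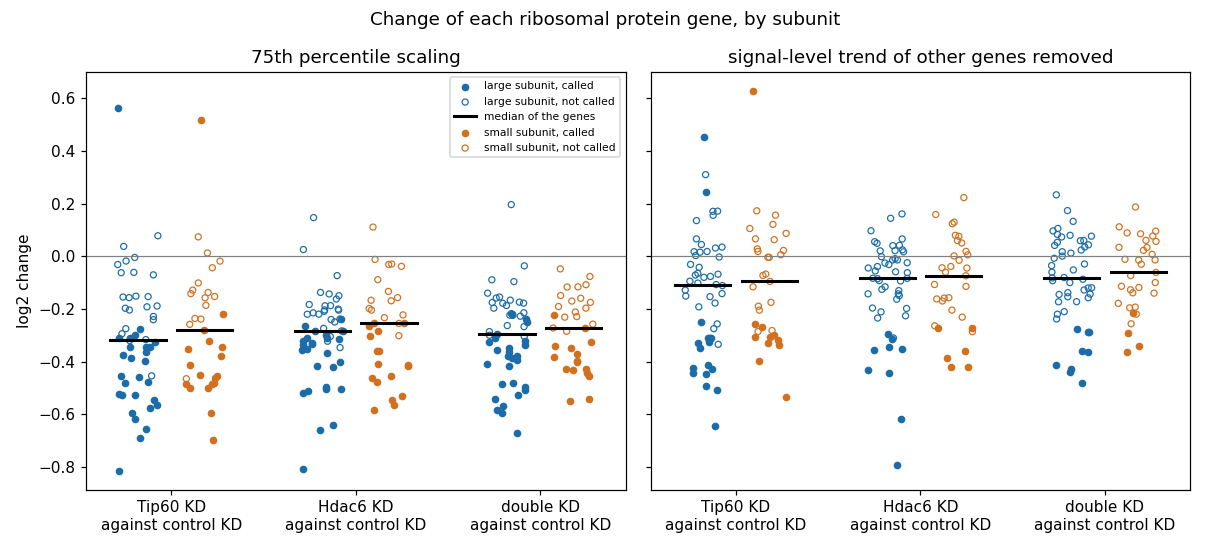
Each point is the log2 change of 1 gene against control KD, for the 51 large subunit (blue) and 33 small subunit (orange) genes. Filled points were called, open points were not, and bars are medians. On the left (75th percentile scaling) both subunits centre between -0.26 and -0.32, and on the right (trend of other genes removed) between -0.06 and -0.11.

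Of the 84 genes, 32 (38.1%) were called lower in all 3 knockdowns (18 large subunit, 14 small subunit), against 9.39% of all genes, 13 in 2, 8 in 1 and 31 in 0. With the trend of other genes removed, 9 genes were called lower in all 3 (1.27 times the share of all genes, 8.46%), and these 9 were also among the 32. All of these counts rest on the same 2 control arrays. Described here are Rpl14, Rpl32, Rpl36 and Rpl39 of the large subunit and Rps3, Rps6 and Rps29 of the small subunit.

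Promoter sequence shows what starts these members have and how they differ. RefSeq windows (build GRCm38.p6, 250 bases before to 50 after an annotated start) matched 62 of the 84 genes by symbol, in 74 windows, and 4 of these 9 genes. Shown for these 4, and for Rps19, which moved the other way upon Tip60 KD, are 40 bases before to 20 after the start, written 5′ to 3′ on the strand of the gene. Capitals mark a pyrimidine tract at the start, meaning a C followed by at least 4 letters that are C or T, beginning at most 5 bases from the annotated start.
Rpl14 (chr9:120571477-120571536, plus strand): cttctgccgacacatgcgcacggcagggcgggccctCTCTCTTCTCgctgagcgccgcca
Rpl39 (chrX:37085203-37085262, minus strand): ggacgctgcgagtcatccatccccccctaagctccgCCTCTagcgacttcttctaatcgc
Rps6 (chr4:86857348-86857407, minus strand): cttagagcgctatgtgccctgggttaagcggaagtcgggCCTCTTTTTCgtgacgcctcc
Rps3 (chr7:99483690-99483749, minus strand): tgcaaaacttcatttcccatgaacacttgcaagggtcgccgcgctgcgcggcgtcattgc
Rps19 (chr7:24884552-24884611, plus strand, the most upstream of 3 windows): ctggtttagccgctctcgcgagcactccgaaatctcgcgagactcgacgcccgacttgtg

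Rpl14 and Rps6 have marked tracts of 10 letters and Rpl39 one of 5, while none was found at the annotated starts of Rps3 and Rps19. In Rpl14 the run of pyrimidines extends further upstream than the capitals, which begin at most 5 bases from the start. Over all members, 31 of 74 windows (41.9%) held such a tract, against 18.4% of all 32851 windows. The tract did not follow the calls closely. It was present in 12 of the 23 matched genes called lower in all 3 knockdowns (52.2%) and in 11 of the 26 called lower in 0 (42.3%). Strings known from promoters of housekeeping genes were counted on both strands of these windows. CCGGAAG, a core bound by ETS factors, was in 35.1% of member windows and 8.86% of all windows, GGGCGG, bound by Sp1, in 59.5% and 35.7%, and AAGATGG, found in YY1 sites, in 16.2% and 6.34%. The first and last of these can overlap in their AAG letters. The E-box CACGTG, bound by Myc, was in 10.8% and 7.15%. These are matches of letters, not measured binding.

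Rpl32, a large subunit protein, had the lowest fitted change of the 84 genes upon Tip60 KD. Its probe (chromosome 6, 115755538 to 115755597 on build mm9, as are all probe positions here) read 6.50 and 6.42 with the control hairpin (A and B), 5.67 and 5.62 upon Tip60 KD, 6.04 and 5.85 upon Hdac6 KD, and 6.03 and 5.89 upon double KD. All knockdown arrays lay below both control arrays, and both Tip60 KD arrays lay below all others. Its change was -0.81 (SE 0.10, limma adjusted p 0.00272) upon Tip60 KD, or 56.9% of control, and -0.51 and -0.50 upon Hdac6 KD and double KD (adjusted p 0.0187 and 0.0179). With the trend of other genes removed these were -0.65, -0.34 and -0.29.

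Rps6 is the small subunit protein phosphorylated by the S6 kinases downstream of mTOR. Its probe (chromosome 4, 86500748 to 86500807) read 5.81 and 5.85 with the control hairpin, 5.35 and 5.34 upon Tip60 KD, 5.26 and 5.33 upon Hdac6 KD, and 5.27 and 5.29 upon double KD. The knockdown arrays lay close to each other and below both controls, with changes of -0.48, -0.53 and -0.55 (limma adjusted p 0.00469, 0.00676 and 0.00513). A second probe was lower as well (-0.33, -0.39 and -0.55), and the dimmest probe, at a mean signal of 0.53, gave 0.25, 0.21 and 0.32 and was not called.

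Rpl39 encodes a very short protein that lines the peptide exit tunnel. The brightest probe (chromosome X, 34622618 to 34622677) read 6.31 and 6.35 with the control hairpin, 5.70 and 5.64 upon Tip60 KD, 5.86 and 5.76 upon Hdac6 KD, and 5.77 and 5.75 upon double KD. Its changes were -0.66, -0.52 and -0.57 (limma adjusted p 0.00231, 0.00853 and 0.00542). A second probe, with a mean signal of 3.37, gave -0.06, -0.02 and -0.15, none of them called, so the probes of this gene did not move alike. The dimmest probe, with a mean signal of -1.16, gave -0.83, -0.62 and -0.47.

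Rpl36 (probe on chromosome 17, 56753615 to 56753674) read 7.04 and 7.01 with the control hairpin, 6.40 and 6.41 upon Tip60 KD, 6.39 and 6.38 upon Hdac6 KD, and 6.49 and 6.54 upon double KD. Replicates lay close together, and the changes were -0.62, -0.64 and -0.51 (limma adjusted p 0.00208, 0.00391 and 0.00557). Rpl14 (probe on chromosome 9, 120483487 to 120483546) read 6.07 and 5.92 with the control hairpin, 5.42 and 5.37 upon Tip60 KD, 5.59 and 5.38 upon Hdac6 KD, and 5.41 and 5.23 upon double KD, with changes of -0.60, -0.50 and -0.67 (adjusted p 0.0112, 0.0292 and 0.0108). Its double KD value was the lowest change of the 84 genes in that comparison. A second Rpl14 probe gave -0.71, -0.76 and -0.92. The third, with a mean signal of 2.39, gave -0.26, 0.0005 and 0.04, none of them called, so the probes of this gene did not move alike.

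Rps3, a small subunit protein with a second role in DNA repair, read 5.75 and 5.72 with the control hairpin, 5.29 and 5.27 upon Tip60 KD, 5.34 and 5.30 upon Hdac6 KD, and 5.39 and 5.28 upon double KD (changes -0.45, -0.42 and -0.40, limma adjusted p 0.00709, 0.0153 and 0.0144). Its dimmest probe gave 0.21 upon double KD, called higher when every probe was tested on its own (adjusted p 0.0849). Rps29 changed by -0.46, -0.55 and -0.46 (adjusted p 0.025, 0.0212 and 0.0319). A second Rps29 probe gave -0.25, -0.44 and -0.37. The third, with a mean signal of 3.86, gave 0.02, -0.25 and -0.06, none of them called. The array files place its probes on chromosome 2 and RefSeq places the gene on chromosome 12, and signal from a copy cannot be told apart. Such a mismatch held for 11 member probes of 5 genes (Rpl13, Rpl36, Rps4x, Rps27 and Rps29), among them the brightest probes of Rps27 and Rps29.

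Among the other large subunit genes, Rpl17 changed by -0.69, -0.50 and -0.59 (limma adjusted p 0.00489, 0.0226 and 0.012), with all 7 probes below 0 in every knockdown. It gave -0.51, -0.31 and -0.36 with the trend of other genes removed, and the Hdac6 KD value was no longer called (adjusted p 0.112). Rpl13 changed by -0.60 upon double KD (adjusted p 0.00641). Among the other small subunit genes, Rps24 changed by -0.59 and Rps27 and Rps28 by -0.50 each upon Tip60 KD (adjusted p 0.00925, 0.00523 and 0.00884). The 4 probes of Rps27 are placed on chromosome 9 by the files, against chromosome 3 in RefSeq, and their accession also names the copy Rps27rt.

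**Figure D4:**
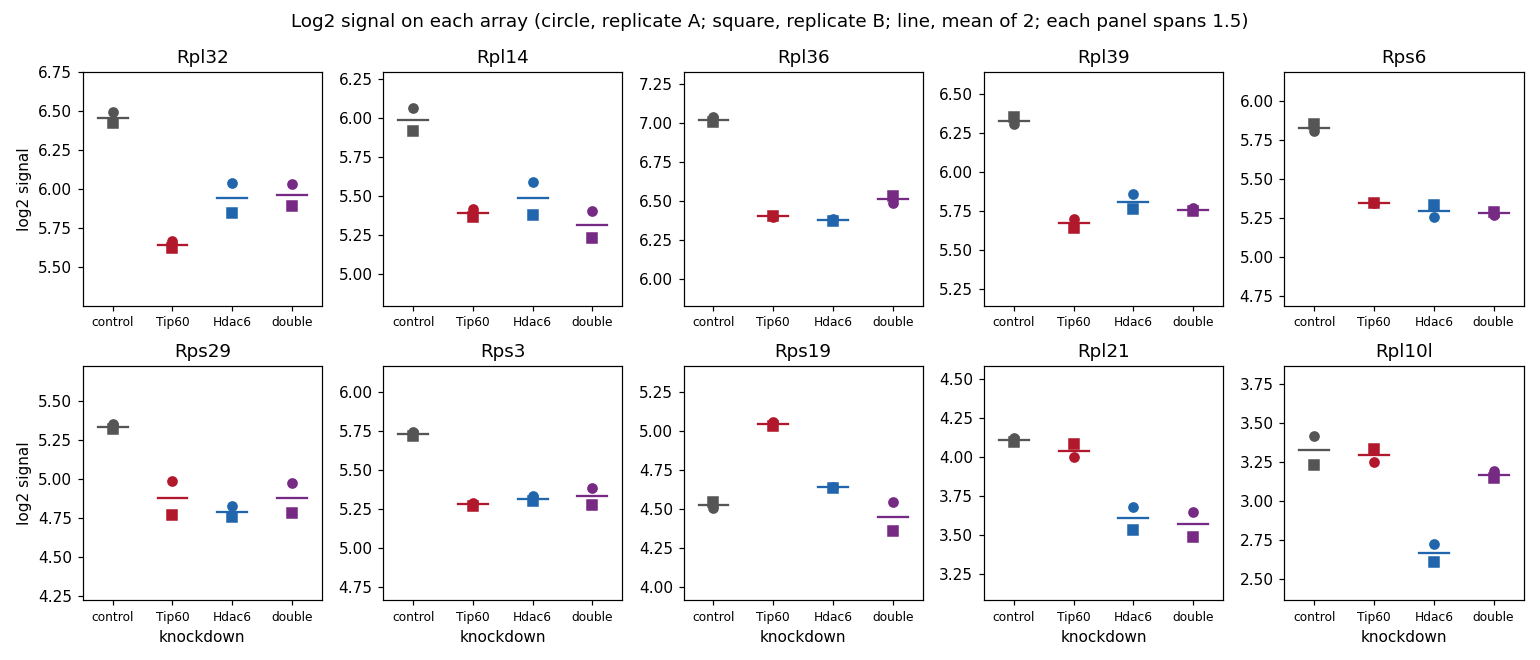
Log2 signal on each of the 8 arrays is shown for 7 of the 9 genes called lower in all 3 knockdowns under both scalings and for Rps19, Rpl21 and Rpl10l. Circles are replicate A, squares replicate B and lines the mean of 2, and every panel spans 1.5 log2 units. In these 7 genes all knockdown arrays lie below both control arrays, whereas Rps19 is high upon Tip60 KD, Rpl21 is low upon Hdac6 KD and double KD, and Rpl10l is low upon Hdac6 KD.

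The stalk that recruits translation factors to the large subunit is made of Rplp0, Rplp1 and Rplp2. Rplp0 changed by -0.20, -0.19 and -0.14 (limma adjusted p 0.242, 0.319 and 0.452), Rplp1 by -0.15, -0.32 and -0.34 (adjusted p 0.288, 0.0654 and 0.0508) and Rplp2 by -0.31, -0.25 and -0.23 (adjusted p 0.0909, 0.189 and 0.214). Each stalk gene was below 0 in every knockdown, and 3 of these 9 values were called, but 0 with the trend of other genes removed. Other Rplp0 probes were also tested on their own. The probe with a mean signal of 6.63 was called lower in all 3 (-0.39, -0.26 and -0.23, limma adjusted p 0.014, 0.067 and 0.0929). The probe at 6.70 gave -0.28, -0.20 and -0.14, called upon Tip60 KD (limma adjusted p 0.0856).

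Rpl5 and Rpl11, which bind 5S ribosomal RNA and can inhibit Mdm2 to stabilise p53, differed in their calls. Rpl11 was called lower in all 3 knockdowns (-0.31, -0.24 and -0.25, limma adjusted p 0.0237, 0.0744 and 0.058). Rpl5 gave -0.15, -0.21 and -0.27 and was not called (adjusted p 0.471, 0.354 and 0.221), although with the replicate letter as a block it was called upon double KD (adjusted p 0.0808). The difference between these 2 genes was not tested. With the trend of other genes removed none of the 6 values of the pair was called, all between -0.11 and 0.04.

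Rpsa, a small subunit protein also known as the laminin receptor, gave -0.10, -0.13 and -0.26 (limma adjusted p 0.604, 0.531 and 0.193), and was called upon double KD with the replicate block (adjusted p 0.0529). Tested on its own, a second Rpsa probe gave -0.29, -0.25 and -0.34, called upon Tip60 KD and double KD (limma adjusted p 0.0984 and 0.0747). The third gave 0.03, -0.26 and -0.30, called upon Hdac6 KD and double KD, and the dimmest -0.49, -0.28 and -0.31, all called. Rps27a, translated as a fusion with ubiquitin, was called lower in all 3 knockdowns, at -0.38, -0.36 and -0.35 (adjusted p 0.0285, 0.0468 and 0.0464), but in none with the trend of other genes removed. Rps9 and Rpl27a, loci the study also examined for chromatin binding, were not called. Rps9 gave -0.15, -0.20 and -0.27 (adjusted p 0.438, 0.331 and 0.184) and Rpl27a -0.19, -0.32 and -0.30 (adjusted p 0.319, 0.126 and 0.135). With the replicate block Rps9 was called upon double KD (adjusted p 0.0515) and Rpl27a upon Hdac6 KD and double KD (adjusted p 0.0299 and 0.0331).

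Members called higher numbered 2 of 84 upon Tip60 KD and 0 upon Hdac6 KD and double KD (all genes 19.7%, 14% and 15.9%). Called lower in 0 knockdowns were 31 of the 84, and 57 with the trend of other genes removed. Rps19, a small subunit protein needed for the maturation of 18S ribosomal RNA and the gene first linked to Diamond-Blackfan anaemia, is represented by 1 probe (chromosome 7, 25670166 to 25670225). It read 4.51 and 4.55 with the control hairpin, 5.06 and 5.03 upon Tip60 KD, 4.64 and 4.63 upon Hdac6 KD, and 4.54 and 4.36 upon double KD. Both Tip60 KD arrays lay above all others. Rps19 rose by 0.52 upon Tip60 KD (SE 0.09, limma adjusted p 0.00735), or to 143% of control, and gave 0.11 upon Hdac6 KD and -0.08 upon double KD (adjusted p 0.447 and 0.595). Its direct contrasts were -0.59 for double KD minus Tip60 KD (adjusted p 0.0653) and 0.41 for Tip60 KD minus Hdac6 KD (adjusted p 0.0291). The first of these contrasts was not called when any 1 of the 8 arrays was left out, with normexp, in the series matrix or in a fit of only the arrays compared, and the second was not called without any 1 of the 4 arrays it compares. The rise upon Tip60 KD was 0.63 with the trend of other genes removed, and it was called under each alternative that was tried.

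Rpl21, a large subunit protein, followed Hdac6 KD. Its brightest probe (chromosome 5, 147646040 to 147646581) read 4.13 and 4.10 with the control hairpin, 4.0 and 4.08 upon Tip60 KD, 3.68 and 3.54 upon Hdac6 KD, and 3.65 and 3.49 upon double KD. Control and Tip60 KD arrays did not overlap with Hdac6 KD and double KD arrays. The change was -0.07 upon Tip60 KD (limma adjusted p 0.642), -0.50 upon Hdac6 KD (adjusted p 0.0175) and -0.54 upon double KD (adjusted p 0.0121). The direct contrast of double KD minus Tip60 KD was -0.47 (adjusted p 0.0899), and this call ended when any 1 array was left out, and in 6 other alternatives (normexp, the series matrix, only the arrays compared, no filter on dim probes, the mean of the probes and the GC trend removed). The other 2 Rpl21 probes, at mean signals of -1.02 and -1.64, gave changes between 0.10 and 0.55, of which 1 was called when every probe was tested on its own (0.29 for the first of these upon Tip60 KD, adjusted p 0.0988).

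Direct comparisons of the knockdowns called few members. Between Tip60 KD and Hdac6 KD 7 of 84 members were called (8.33%, against 23.5% of all genes). Rpl10l, Rpl21, Rpl3l and Rps19 were higher upon Tip60 KD, by 0.63, 0.43, 0.54 and 0.41, and Rpl30, Rpl32 and Rpl35a were lower, with differences of -0.26, -0.30 and -0.26. Of the 7, Rpl10l kept its call under each alternative tried, and each of the others lost it without at least 1 array. With the replicate block 17 members were called, against 41.5% of all genes. Between double KD and Tip60 KD the 2 members called (2.38%, against 3.7% of all genes) were Rpl21 and Rps19, neither of them with any 1 array left out, and the block gave 10 (background 26.3%). Between double KD and Hdac6 KD 1 member was called (1.19%, against 10.1%), Rpl10l, which was higher upon double KD by 0.50, and the block gave 7 (background 29.4%). In each of these 3 comparisons the share of members called was below that of all genes.

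Paralogs of restricted or alternative use were set beside their partners. Rpl10l, a copy of Rpl10 expressed in testis, read 3.42 and 3.23 with the control hairpin, 3.25 and 3.33 upon Tip60 KD, 2.72 and 2.61 upon Hdac6 KD, and 3.19 and 3.15 upon double KD. It changed upon Hdac6 KD by -0.66 (SE 0.10, limma adjusted p 0.00862), with no overlap with other groups, while Rpl10 gave -0.21 there (adjusted p 0.147, and 0.0732 with the replicate block). A second and dimmer Rpl10l probe rose by 1.19 upon Tip60 KD (adjusted p 0.00062), where the brightest probe gave -0.03. The mean of both probes therefore gave 0.58 upon Tip60 KD, and the direction of Rpl10l in that knockdown is not settled.

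Rpl39l, a copy of Rpl39, read 1.74 and 1.53 with the control hairpin, 1.34 and 1.02 upon Tip60 KD, 0.98 and 0.68 upon Hdac6 KD, and 1.63 and 1.27 upon double KD. It changed by -0.81 upon Hdac6 KD (SE 0.19, limma adjusted p 0.0326), the lowest change of the 84 genes there. Without control KD A the adjusted p was 0.149, and without Hdac6 KD B it was 0.161. Upon Tip60 KD and double KD it gave -0.45 and -0.19 (adjusted p 0.125 and 0.55), and both were called with the replicate block (adjusted p 0.00181 and 0.0463). The Tip60 KD value was also called under 4 other scalings.

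Rpl3l, a striated muscle copy of Rpl3, was at the lowest level measured (-2.71) on both control arrays and read -2.22 and -2.08 upon Tip60 KD, -2.66 and -2.71 upon Hdac6 KD, and -2.69 and -2.34 upon double KD. On 1 control array it was well above background. Since both control arrays lay at the floor, its fitted change of 0.56 upon Tip60 KD depends on that floor (limma adjusted p 0.0219, and 0.107 without Tip60 KD B). Rpl3 gave -0.24, -0.30 and -0.39, called upon double KD (adjusted p 0.052) but not there with the trend of other genes removed; under the block it was also called upon Tip60 KD and Hdac6 KD (adjusted p 0.0308 and 0.0177).

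Rpl22l1 and its partner Rpl22 were both called lower in all 3 knockdowns, at -0.40, -0.31 and -0.33 for Rpl22l1 (limma adjusted p 0.0193, 0.0584 and 0.046) and -0.52, -0.36 and -0.38 for Rpl22 (adjusted p 0.00463, 0.0251 and 0.0183). Only their Tip60 KD values were called with the trend of other genes removed (-0.25 and -0.31, adjusted p 0.0551 and 0.0274), while Rpl22l1 gave -0.16 and -0.14 upon Hdac6 KD and double KD (adjusted p 0.206 and 0.273) and Rpl22 -0.14 and -0.13 (adjusted p 0.263 and 0.309). Rpl7l1 gave -0.15, 0.15 and -0.09 and was called in 0 knockdowns (adjusted p 0.336, 0.391 and 0.603), while Rpl7 gave -0.34, -0.16 and -0.24 and was called upon Tip60 KD and double KD (adjusted p 0.0182 and 0.0716); under the block it was also called upon Hdac6 KD (adjusted p 0.086). Rps27l, a p53-induced copy of Rps27, gave -0.26, -0.30 and -0.20, called only with the block (adjusted p 0.0331, 0.0247 and 0.0822). Rps4y2, now named Rps4l, gave 0.07, -0.03 and -0.12 and was not called, while its partner Rps4x was called lower in all 3 (-0.34, -0.29 and -0.27, adjusted p 0.0264, 0.0645 and 0.0677). Neither Rpl7 nor Rps4x was called in any knockdown with the trend of other genes removed.

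Probes of the same gene agreed in part. When every probe was tested on its own, 93 of 186 member probes (50%) were lower upon Tip60 KD against 19.8% of all probes, 83 (44.6%) upon Hdac6 KD against 15.1%, and 97 (52.2%) upon double KD against 17%. Of the 58 genes with at least 2 kept probes, 33, 24 and 29 had at least 2 called probes upon knockdown of Tip60, Hdac6 and both. Called probes pointed in opposite directions for 3 of them upon Tip60 KD (Rpl27, Rpl29 and Rps18), 1 upon Hdac6 KD (Rps15a) and 1 upon double KD (Rps3). In all 5 cases the brightest probe was lower and a dimmer one higher. For Rps18, the brightest probe changed by -0.35 and the other by 0.42 upon Tip60 KD (limma adjusted p 0.0391 and 0.0155). The probe of Rpl34 that was brighter on 7 arrays was at the lowest level on Tip60 KD A alone, and the other Rpl34 probe stood for the gene. For 17 member probes of 9 genes the accession also names another symbol, and signal from such copies cannot be separated.

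**Figure D5:**
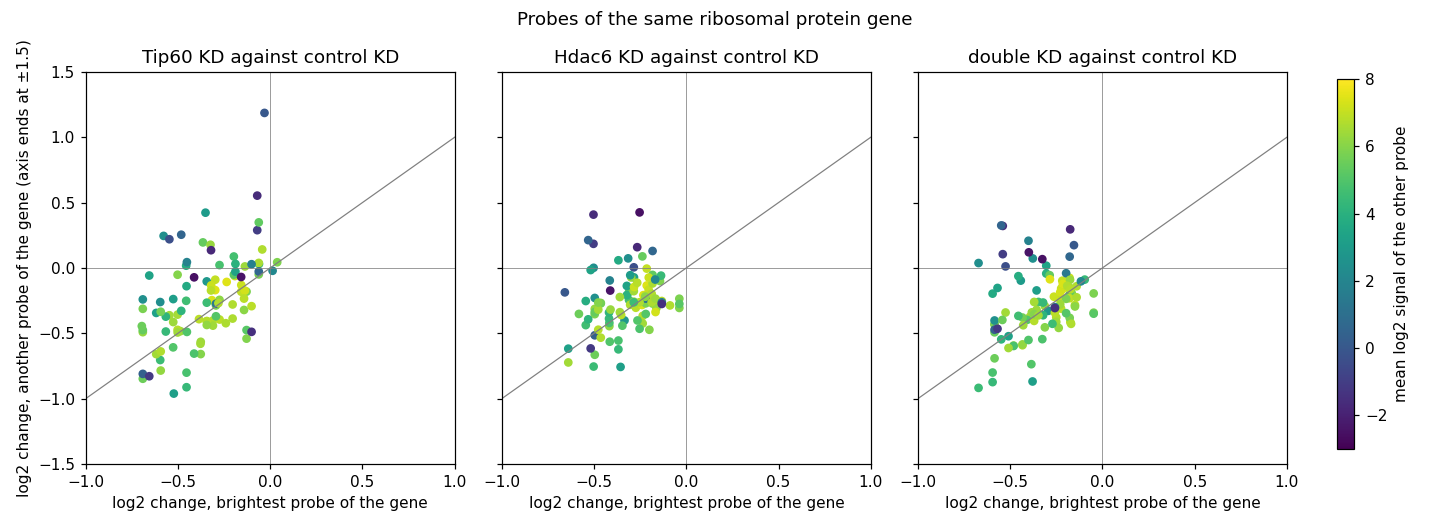
For genes with at least 2 kept probes, the log2 change of each of the 102 further probes (vertical axis) is plotted against that of the brightest probe of the gene (horizontal axis), coloured by the mean log2 signal of the further probe, with the line of equality. Most points lie below 0 on both axes, and points above 0 on the vertical axis include many dim probes. The vertical axis ends at ±1.5 and leaves out 1 Rpl34 probe at -4.90 upon Tip60 KD.

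Other genes of the translation machinery were read from lists. Of 18 tested genes that encode further ribosomal proteins or have TOP mRNAs, 5 were called lower and 3 higher upon Tip60 KD, 6 and 1 upon Hdac6 KD and 7 and 1 upon double KD, with median changes of -0.18, -0.26 and -0.22. The shares of all genes called lower and higher were 20.1% and 19.7%, 14.9% and 14%, and 16.9% and 15.9%. As among the members, most of these genes are bright, 13 of the 18 with a mean signal above 5. With the trend of other genes removed the medians were -0.04, -0.04 and -0.0003, and 5 were called lower and 4 higher, 3 and 2, and 6 and 3. Fau, which encodes ribosomal protein S30 fused to a ubiquitin-like protein, changed by -0.78, -0.58 and -0.54 (limma adjusted p 0.00231, 0.0102 and 0.01). Rpl36al, a copy of Rpl36a outside the naming rule, changed by -0.70, -0.33 and -0.63. Eef1g, a subunit of elongation factor 1, changed by -0.60, -0.35 and -0.53, and Eif3h, of initiation factor 3, by -0.60, -0.41 and -0.51. All 4 were called in each knockdown, and with the trend removed the Hdac6 KD values of Rpl36al and Eef1g were not (adjusted p 0.118 and 0.162).

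Mitochondrial ribosomal protein genes were read in the same way. Of the 76 tested, 22 were called higher and 10 lower upon Tip60 KD (all genes 19.7% and 20.1%), 18 and 12 upon Hdac6 KD (14% and 14.9%) and 14 and 9 upon double KD (15.9% and 16.9%), with medians of 0.08, 0.04 and 0.07 beside the 0.06, 0.03 and 0.05 of all genes. With the trend of other genes removed, 26, 21 and 20 were called higher and 9, 10 and 8 lower, with medians of 0.12, 0.06 and 0.12. Of all 18034 genes, 3334, 2392 and 2607 were then called higher and 3478, 2487 and 2688 lower. Their medians were 0.01, 0.007 and 0.009. Mrpl37 was higher (1.13, 0.69 and 0.70) and Mrpl23 lower (-1.0, -0.93 and -0.83) in all 3 knockdowns. Of these 76, 0 had a mean signal above 5, and the difference from the cytosolic genes was not tested.

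Of 16 tested genes of mTOR signalling and of proteins that act on TOP mRNAs, 4 were called higher and 4 lower upon Tip60 KD, 3 and 2 upon Hdac6 KD, and 3 and 2 upon double KD. These are between 2 and 4 genes of 16 in each direction, beside 19.7% and 20.1%, 14% and 14.9%, and 15.9% and 16.9% of all genes called higher and lower. Tsc1, which restrains mTOR, changed by -1.07, -0.45 and -0.61 (limma adjusted p 0.00275, 0.0598 and 0.0221). Rps6kb1, an S6 kinase, changed upon Tip60 KD by -0.69 (adjusted p 0.00549) and the related Rps6kb2 was higher in all 3 (0.69, 0.57 and 0.61). Rps6ka1, of the p90 kinase family, was also higher (0.72, 0.68 and 0.73). Tsc2 did not pass the filter on dim probes.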

How the data were processed

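Per the authors' methods and the file headers, Cy3-labelled cRNA was hybridised to 1-colour Agilent mouse arrays and read with Feature Extraction 10.7.1.1. The deposited intensity values are per spot, background-subtracted and detrended, and not scaled between arrays. A series matrix, also deposited, has log2 values that ranked probes as the raw signal did (Spearman rho 0.9994 to 0.9999), with equal medians of 8.19 to 8.20, and its exact normalisation is not stated. It served as an alternative.

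Spots marked as outliers were set to missing. Processed signals were divided by each array's 75th percentile, floored at 0.153 of it (-2.71 in log2), the highest of the arrays' lowest signals well above background, and log2 transformed. A probe needed signal above background and floor on at least 2 arrays. The brightest probe per gene name was fitted with limma 3.58.1 (R 4.3.3) over all 8 arrays and 18034 genes, without a block, at a Benjamini-Hochberg adjusted p under 0.1. Residual degrees of freedom were 4 and prior ones 1.84. The floor held 8.86% of the values, and the number of arrays limits the precision.

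Alternatives were quantile, cyclic loess and median scaling, normexp (offset 50), the series matrix, no dim-probe filter, other probe rules, current symbols, a GC trend, the replicate block, fits of only the arrays compared, and leaving out each array. Removing the signal-level trend (lowess, span 0.3, fitted without the members) was added after the data were seen. Replicate letter and slide coincide, and the letters paired the arrays: A minus B differences correlated between every pair of groups (6 correlations over genes, 0.651 to 0.799). The steps were tested on simulated data.

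The members, gene lists and naming rule were chosen with earlier results of these data known. Named genes are Kat5 and Hdac6, the 4 largest called increases and decreases per subunit and knockdown, fixed role groups (stalk, 5S particle, Rps6, Rpsa, Rps3, Rps27a, Rps9, Rpl27a), paralogs with their partners, members with probes called in opposite directions, and at most 4 called members of other lists. Other members (such as Rpl21, Rpl30, Rpl34, Rpl35a and Rps14) and Rps3's place among the 9 were named after their values were seen. Results of 3 members are counted but not reported here by name. Promoters come from RefSeq (GRCm38.p6). Protein sequences were not used here. Figures were drawn with matplotlib 3.10.9 (Python 3.11.15).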

Additional observations from a re-analysis of the deposited data

Results flagged for a closer look

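For 7 ribosomal protein genes the change in Tip60 KD differed from that in Hdac6 KD by limma's direct contrast of these groups, at an adjusted p under 0.1 over 18034 genes. The log2 difference (Tip60 KD minus Hdac6 KD) was 0.628 for Rpl10l, 0.536 for Rpl3l, 0.433 for Rpl21 and 0.406 for Rps19, and -0.301 for Rpl32, -0.262 for Rpl30 and -0.261 for Rpl35a. Rpl10l rests on 1 of 2 probes, which differed in Tip60 KD against control KD. In the contrast given here the dimmer probe had the same sign, at 0.85 and 0.87 upon Tip60 KD and -0.55 and -0.48 upon Hdac6 KD. Rpl3l lies at the lowest level measured in 3 of the 4 control and Hdac6 KD arrays. Groups of 2 arrays were not examined for outlying samples.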

How the results depend on the processing

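Scaling that follows signal level, and the series matrix, lowered the number of members called against control KD and made their median changes smaller. Members called against control KD (46, 43 and 43 for knockdown of Tip60, Hdac6 and both) numbered 28, 17 and 12 with quantile normalisation, 28, 15 and 13 with cyclic loess, 26, 13 and 11 in the series matrix, and 28, 15 and 13 with the signal-level trend removed, an alternative chosen after the data were seen. Of all genes, 38.5%, 27.9% and 29.8% were called with quantile normalisation, 38.8%, 28.1% and 30.5% with cyclic loess, 34.6%, 22.4% and 24.3% in the series matrix and 37.8%, 27.1% and 29.4% with the trend removed, in each case a larger share than that of the members (11 to 28 of 84, 13.1% to 33.3%). Members called lower were 28.6%, 17.9% and 14.3% (all genes 19.0%, 13.3% and 14.3%), 29.8%, 17.9% and 15.5% (20%, 14.5% and 15.3%) and 26.2%, 15.5% and 13.1% (17.3%, 11.2% and 11.6%) with quantile normalisation, cyclic loess and the series matrix. The median changes (-0.31, -0.28 and -0.28) were then -0.11, -0.077 and -0.069 (quantile), -0.10, -0.083 and -0.068 (cyclic loess), -0.11, -0.085 and -0.076 (series matrix), and -0.10, -0.084 and -0.077 (trend removed, with or without the replicate block). Normexp gave medians of -0.27 and -0.23 in Tip60 KD and double KD, and the mean of a gene's probes -0.24 in Tip60 KD. Tested probe by probe, 101, 84 and 98 of 186 were called (54.3%, 45.2% and 52.7%, against 40.6%, 30.0% and 33.8% of all probes). Only the arrays compared gave 25 in double KD (29.8%, against 23.4% of all genes). The replicate block with the GC trend removed gave 65 there (77.4%, against 55.1%). The medians of the members stayed below 0 under all alternatives, while the large minus small difference turned to 0.035, 0.021 and 0.015 with normexp and to 0.026 and 0.024 (Tip60 KD, Hdac6 KD) in the series matrix.

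Between Tip60 KD and Hdac6 KD (7 members) the replicate block gave 17 calls (20.2%, against 41.5% of all genes). It gave 16 with the GC trend and 15 with the signal-level trend removed as well. Normexp gave 4, only the arrays compared 3 and single probes 18. Of all 18034 genes, the block called 7427 and 7469 with these trends removed, normexp 3430 and only the arrays compared 2403. Of 22594 probes, 5410 were called. Between double KD and Tip60 KD (2) the same alternatives gave 10, 8, 11, 0, 0 and 6 members. All genes called numbered 4734, 4578, 4851, 59 and 0, and all probes 1068. Quantile normalisation gave 4 members (1026 of all genes) and the series matrix 0 (110). Without the filter 1 was called (774 of 30175), and 1 with the GC trend removed (555 of all genes). Between double KD and Hdac6 KD (1) the block gave 7 in each of its 3 forms, beside 5305, 5306 and 5296 of all genes. Quantile normalisation gave 3 (1976 of all genes). Cyclic loess, median scaling and the signal-level trend gave 2 each (1783, 2277 and 1637). No filter gave 4 (1591 of 30175), single probes 3 (2294 of 22594) and only the arrays compared 0 (0 of all genes). Where limma called 0, members with an unadjusted p under 0.05 numbered 4 (normexp), 7 (series matrix) and 4 (only the arrays compared) for double KD against Tip60 KD. For double KD against Hdac6 KD they numbered 3 (only the arrays compared). The shares of all genes at that unadjusted threshold were not counted. The replicate block ended no member's call.

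Leaving out 1 array gave 32 to 45, 11 to 42 and 18 to 44 members against control KD, 1 to 6 for Tip60 KD against Hdac6 KD, 0 to 0 for double KD against Tip60 KD and 0 to 1 for double KD against Hdac6 KD. Medians ranged from -0.35 to -0.27, -0.30 to -0.25 and -0.33 to -0.25, and the large minus small difference from -0.058 to 0.011, -0.069 to 0.013 and -0.023 to 0.013. Against control KD, the share of all genes called was also lower in each of these fits than with all arrays. The ranges of members called therefore do not concern the members alone. Without Hdac6 KD B, the share of members called upon Hdac6 KD was below that of all genes. A lone array was assumed to vary like the other groups.

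Of 2898 values of named genes under 23 alternatives, 334 lost and 66 gained a call with the sign kept, and 106 lay on the other side of 0, of which 99 were called in neither fit. The other 7, called in 1 of the fits or both, were Rpl10l in Tip60 KD (0.58) and Rps18 in Tip60 KD (0.036) with the mean of their probes, Rpl11 in Hdac6 KD (0.0026) and double KD (0.018) with quantile normalisation, and Rpl7 in double KD with cyclic loess (0.020) and the signal-level trend removed (0.017 with and without the block). The cause of these changes was not tested. Few arrays and, for dim probes, the floor limit the precision.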
